A study of Mus musculus with 6 samples.

Results

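The nuclear lamins and the proteins that tie the nucleus to the cytoskeleton were followed here in the mouse melanoma line B16.F10 after 24 h with 3.5 µM simvastatin. They comprise 5 genes, taken by symbol from the authors' deposited table of transcripts: Lmna, Lmnb1 and Lmnb2, which encode the lamins, Sun1 of the inner nuclear membrane and Syne2 of the outer one. They are 5 of the 8513 genes of the table and hold 14 of its 15905 transcript rows. Of the 50 transcripts that GENCODE annotates for them, 9 had a row, the other 5 rows were models assembled from reads, and 9 of the 14 rows had a value of at least 1 in both groups. One group of 3 samples was given the statin and the control group of 3 had no treatment, and the series text calls the samples biological replicates. All 6 samples came from 1 line labelled as wild type and carry the same batch date. Simvastatin blocks the synthesis of mevalonate, the precursor of cholesterol and of the farnesyl and geranylgeranyl anchors of proteins.

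Lamins are intermediate filament proteins that form a mesh under the inner nuclear membrane. B-type lamins and the lamin A precursor end in a CaaX box, a cysteine followed by 3 residues, to which a farnesyl group is attached. B-type lamins keep this anchor, whereas mature lamin A loses it when Zmpste24 cuts off the end of the precursor, and lamin C, the other main product of Lmna, ends before the box. SUN proteins bind the lamina on one side and, between the nuclear membranes, the KASH domain of nesprins such as Syne2 on the other, and this pair is the LINC complex (linker of nucleoskeleton and cytoskeleton). Nesprins in turn bind actin or motor proteins.

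The ends of the coding sequences show which transcript rows carry the farnesyl site. Each line below is the last 45 bases of an annotated coding sequence in the GENCODE mouse release 21 transcripts (GRCm38), read 5′ to 3′ with the stop codon last, and the capitals mark the 4 codons of a CaaX box.
Lmna-201: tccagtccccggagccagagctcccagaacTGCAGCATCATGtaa
Lmna-203: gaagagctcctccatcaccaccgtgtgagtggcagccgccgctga
Lmnb2-204: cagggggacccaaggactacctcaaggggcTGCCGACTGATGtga
Lmna-201 and Lmnb2-204 have a cysteine codon at the head of their last 4 codons and Lmna-203 does not. Lmnb1-201, whose sequence is not shown, has one too. Lmna-201 is therefore the lamin A precursor, with 665 codons in 12 exons, and Lmna-203 is lamin C, with 574 codons in 10 exons. The printed ends lie on the minus strand, at chr3:88482074-88482100 and chr3:88482346-88482363 for Lmna-201, at chr3:88483297-88483341 for Lmna-203, and at chr10:80902859-80902900 and chr10:80903212-80903214 for Lmnb2-204.

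Every value below is the authors' single value for a group, and the sources used here do not name its unit. No value per sample was used, so no SD can be given and the depth behind a value is unknown. A call means an adjusted p under 0.05 in the authors' deposited table (the sources used here do not name the test), and "rose" and "fell" are kept for rows that passed it. The pigment cell identity of the line was visible in the table: all 8 melanocyte markers looked for were present, and Pmel, a melanosome protein, summed to 2799 with simvastatin and 1893 in control. Of 11 markers of keratinocytes, fibroblasts, leukocytes and endothelium, only Cd68 was among the rows, with 0.93 and 0.37. The values of all rows summed to 344210 with simvastatin and 394749 in control, while the median log2 ratio of simvastatin over control over all gene sums was 0.02.

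Lmnb1 fell, 2 Syne2 transcripts fell to nearly 0, and no row rose. By the adjusted p, 3 of the 14 rows fell, where 0.987% of all rows fell, and 0 of 14 rose, where 1.11% of all rows rose. By the authors' own call, which reaches an adjusted p of up to 0.2 with a fold of at least 1.5, 4 rows were lower and 1 was higher, against 4.37% and 5.13% of all rows. At an unadjusted p under 0.05 in the authors' deposited table, 6 were lower and 1 was higher, against 10.2% and 9.42% of all rows. With a Benjamini-Hochberg adjustment recomputed here from the p-values of the authors' deposited table, 3 were lower and 1 was higher, against 1.91% and 2.16% of all rows. The p-values are rounded to 3 decimals and those printed as 0 were set to 0.0005, and the 1 higher row, TCONS_00005978 of Syne2, lay just inside the threshold at 0.0491 (0.058 in the authors' deposited table). The rows within a gene are not independent, because transcripts share exons. Of the 3 rows that fell, 2 belong to Syne2, and all bases of Syne2-208 lie inside Syne2-202. By the authors' call, 3 of the 4 lower rows belong to Syne2.

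**Figure D1:**
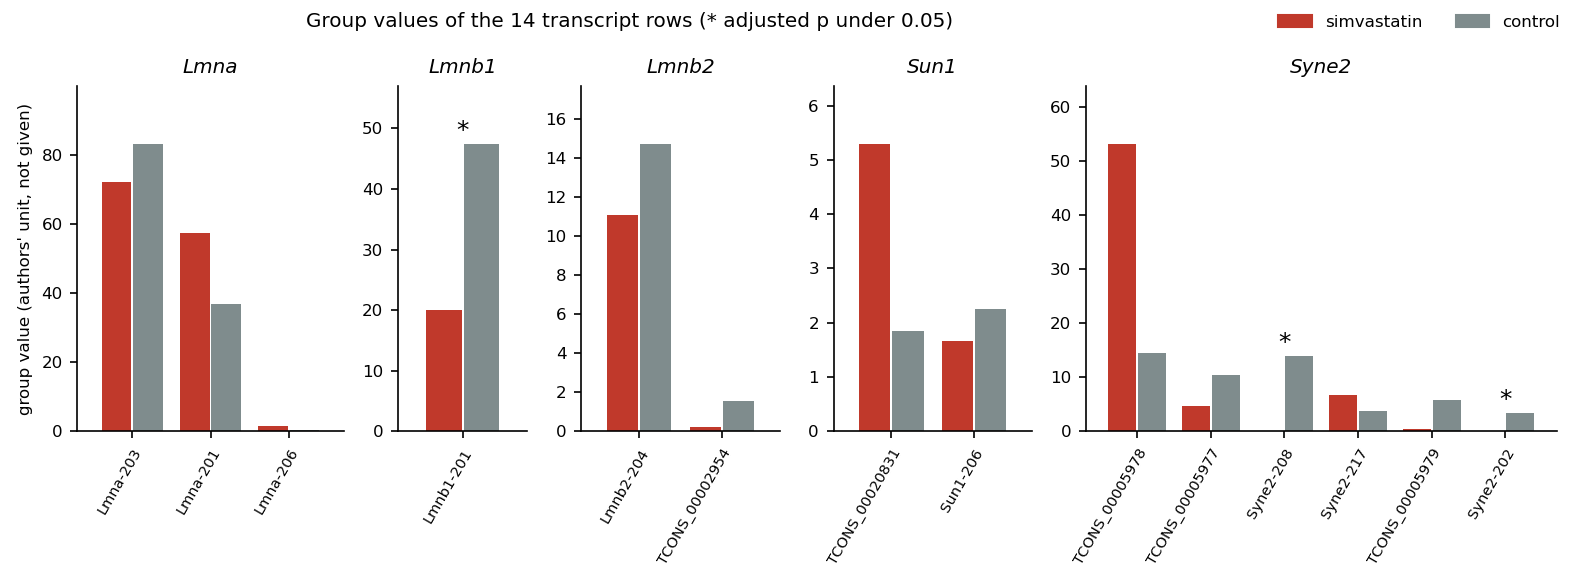
Group values of the 14 transcript rows, 1 panel per gene with its own vertical axis in the authors' unit, with simvastatin in red left of control in grey and stars for an adjusted p under 0.05. Lmnb1-201 stood at 20.11 against 47.49, and Syne2-208 and Syne2-202 at 0.02 and 0.00 against 14.04 and 3.36, while the tallest Syne2 row was higher with simvastatin.

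Lmnb1, the farnesylated lamin B1, had 1 row, Lmnb1-201, with the value 20.11 in simvastatin cells and 47.49 in control cells. It fell 2.36-fold (adjusted p = 0.042 in the authors' deposited table). With a single row, the transcript and the gene sum are the same, so row and sum cannot disagree. Its log2 ratio of -1.24 was undercut by 2.89% of all gene sums. Among single rows such a fold was more common: 1598 rows (10.0%) had the fold of Lmnb1 or a lower one. Of 2464 Ensembl rows with at least 20 in control, 114 (4.63%) did. In bulk RNA, fewer cells with the transcript and less of it per cell cannot be told apart. The gene lies on chromosome 18, at 56707813 to 56753424 on the plus strand, and the row covers 11 exons with 2843 bases.

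Lmnb1 was also the 1 member in the authors' deposited comparison with human A375 melanoma cells given 10 µM simvastatin. There its mouse log2 fold change was -1.20 (adjusted p = 0.0416 in the authors' deposited table). The log2 ratio of the 2 group values after adding 1 to each was also -1.20, so this is the same mouse comparison and not a second result. The human z-score was -3.92, the 11th lowest of 158 entries, in a table of authors' chosen entries whose median z-score was 0.27 and whose lowest was -9.22. The dose differs from that of the mouse cells, and the z-score and the fold change are on different scales.

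Lmnb2, the second B-type lamin, was lower in both of its rows without passing the test. Lmnb2-204, on chromosome 10, had 11.10 in simvastatin cells and 14.74 in control cells, 1.33-fold lower (p = 0.023, adjusted p = 0.17 in the authors' deposited table). The model TCONS_00002954, which was assembled from reads, had 0.21 with simvastatin and 1.55 in control (adjusted p = 0.625 in the authors' deposited table). The sums were 11.31 and 16.29, a log2 ratio of -0.53, and 14.3% of all gene sums had a lower one. Rows and sum thus pointed the same way for Lmnb2, whereas for Lmnb1, with its 1 row, this was given beforehand. Of the B-type lamins, only Lmnb1 passed.

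The A-type lamin gene Lmna had a sum that differed little between the groups, 131.21 with simvastatin and 120.54 in control, a log2 ratio of 0.12. Its 2 main rows pointed in opposite directions. The lamin A precursor, Lmna-201, had 57.37 in simvastatin cells and 36.79 in control cells, 1.56-fold higher (adjusted p = 0.395 in the authors' deposited table). Lamin C, Lmna-203, had 72.20 with simvastatin and 83.30 in control, 1.15-fold lower (adjusted p = 0.988 in the authors' deposited table). The precursor stood at 0.795 of lamin C with simvastatin and at 0.442 in control, a 1.80-fold difference for which no test can be made from 1 value per group. By the authors' test, neither difference passed the threshold.

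The 2 main Lmna transcripts overlap for much of their length. They share 1908 bases, which is 94.4% of Lmna-203, and 113 bases (5.59%) of Lmna-203 lie outside Lmna-201 and Lmna-206. Lmna-201 has 1220 bases (38.7%) of its own, which are its last 2 exons. Lmna-206, an incomplete coding transcript that begins 6.62 kb before Lmna-201, had 1.64 with simvastatin and 0.45 in control (adjusted p = 0.748 in the authors' deposited table). The gene lies on chromosome 3 at 88480147 to 88509956, on the minus strand.

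**Figure D2:**
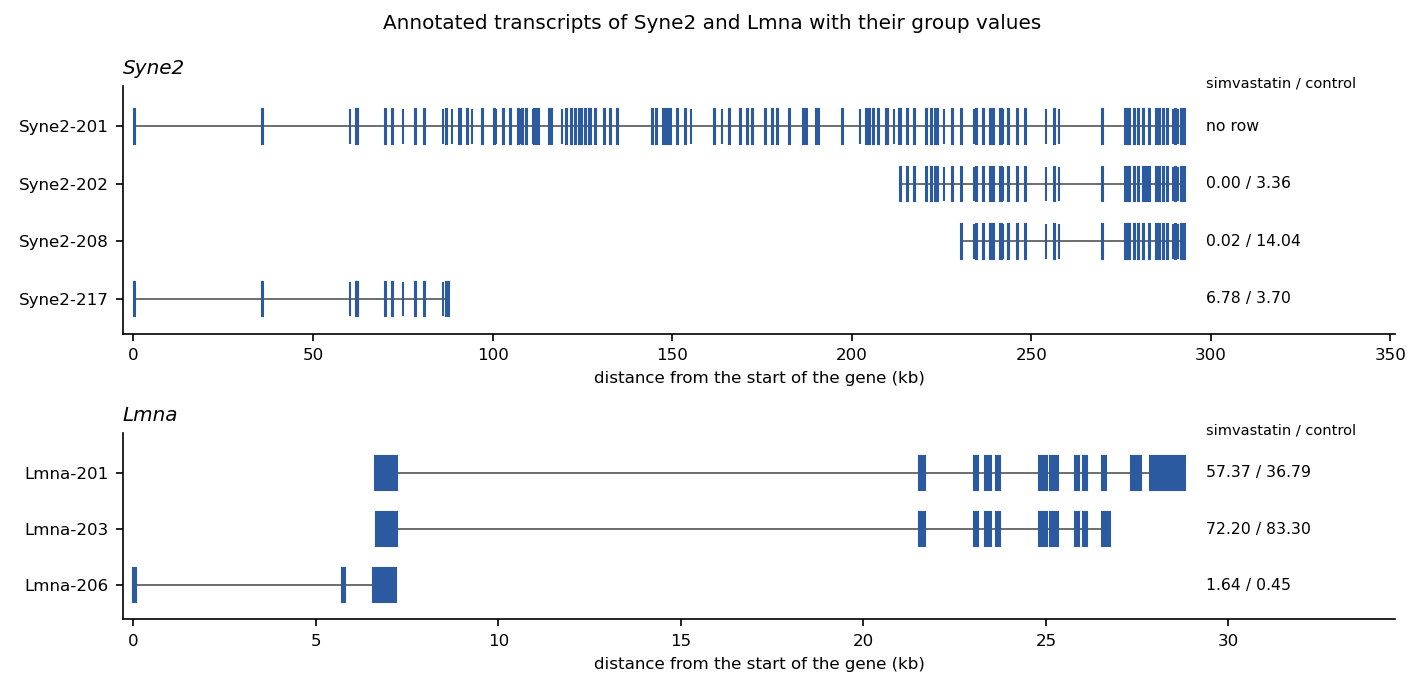
Annotated transcripts of Syne2 (top) and Lmna (bottom), with exons as boxes against the distance from the start of the gene in kb, and the group values at the right, simvastatin before control. The Syne2 rows that fell cover the 3′ end of the gene, and Syne2-217 covers its 5′ end. Syne2-201 is drawn as the full-length form and had no row.

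Syne2, which encodes nesprin-2, a giant spectrin repeat protein of the outer nuclear membrane, was the member in which single rows and the sum differed most. It had 6 rows, 3 with Ensembl identifiers and 3 assembled from reads. Syne2-208 had 0.02 in simvastatin cells and 14.04 in control cells and fell, 816-fold (adjusted p = 0.022 in the authors' deposited table). Of 5450 rows with at least 10 in control, 10 were under 0.05 with simvastatin, Syne2-208 among them. Of 5507 rows with at least 10 with simvastatin, 12 were under 0.05 in control. Syne2-202 was listed at 0.00 with simvastatin and had 3.36 in control, and fell too (adjusted p = 0.043 in the authors' deposited table). The size of folds against a value this near 0 rests on digits that the table does not print.

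The opposite difference stood in an assembled row of the same gene. TCONS_00005978 had 53.31 with simvastatin and 14.52 in control, 3.67-fold higher in the authors' deposited table, which calls it, although its adjusted p was 0.058. TCONS_00005979 had 0.51 with simvastatin and 5.90 in control and is called too (adjusted p = 0.087 in the authors' deposited table). TCONS_00005977 had 4.75 with simvastatin and 10.36 in control (adjusted p = 0.216 in the authors' deposited table). Syne2-217, a transcript with a retained intron, had 6.78 with simvastatin and 3.70 in control (adjusted p = 0.545 in the authors' deposited table). The 4 lower rows together had 5.28 with simvastatin and 33.66 in control, a loss of 28.38, and the 2 higher rows had 60.09 and 18.22, a gain of 41.87.

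The sum over the 6 rows was 65.37 in simvastatin cells and 51.88 in control cells, 1.26-fold higher, a log2 ratio of 0.33. Over the 3 Ensembl rows alone it was 6.80 with simvastatin and 21.10 in control, a log2 ratio of -1.63, which is the opposite direction. TCONS_00005978 made up 81.6% of the sum with simvastatin and 28.0% in control. Syne2-202 and Syne2-208 together made up 0.0306% with simvastatin and 33.5% in control. Such shares take the authors' values as ones that can be added over transcripts. What differed between the groups was thus mainly which row of Syne2 held the signal, and less its sum.

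**Figure D3:**
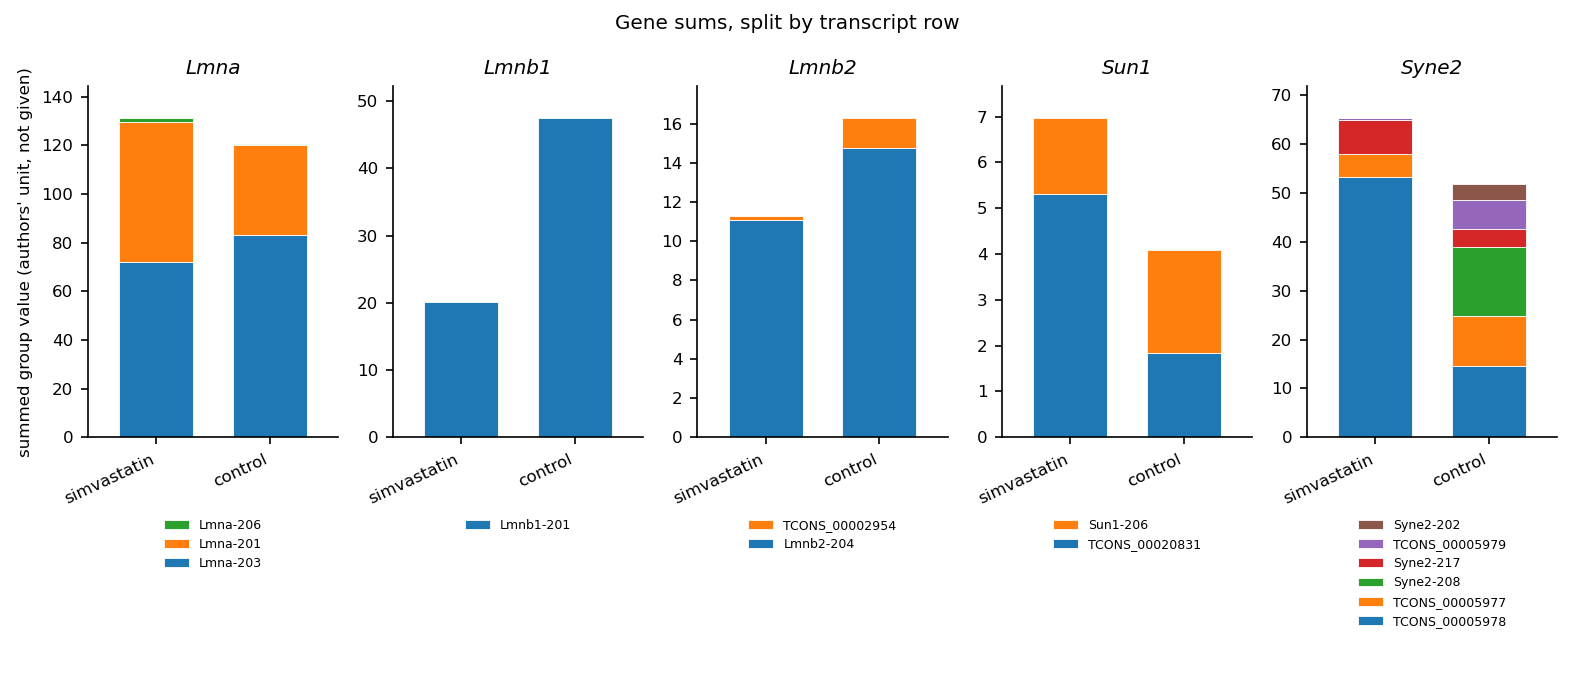
Sums of the group values over the rows of each gene, simvastatin left of control, split by transcript row, on a separate vertical axis for each gene in the authors' unit. The Syne2 bars reach 65.37 and 51.88 with different rows inside them, and the Lmna bars reach 131.21 and 120.54 with a larger Lmna-201 share under simvastatin.

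The annotated Syne2 rows fall into the 2 ends of a gene of 116 exons in its full-length form, Syne2-201, which had no row among the 14. Syne2-208 overlaps 31 exons between the 85th and the last, and all its 5789 bases lie inside Syne2-202, which overlaps 40 exons from the 76th to the last. Both are annotated with an incomplete start of the coding sequence, and both end at the stop codon of the full-length form, in the last exon. The KASH domain, which sits in the nuclear envelope, is known to lie at this end of nesprin-2. The last 45 bases of the coding sequence, at chr12:76110000-76110044 on the plus strand, are the same in all 3 forms and are shown because they mark this shared end.
Syne2-208, Syne2-202 and Syne2-201: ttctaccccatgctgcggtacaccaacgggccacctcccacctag
Syne2-217 overlaps exons 1 to 13 of the full-length form and shares no base with Syne2-208 or Syne2-202. The exons of the assembled models were not used here, so whether TCONS_00005978 contains this end is unknown.

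Rows in both directions were common in the table, and called rows in both directions were not. Of 3978 genes with at least 2 rows, 2523 (63.4%) had rows in both directions, as Lmna, Sun1 and Syne2 did. Rows that the authors called in both directions were found in 47 genes (1.18%), among them Syne2. A gene with more rows has more chances of this, and Syne2 has 6. The share among genes with a similar number of rows was not computed. Of these 47 genes, 2 had at least 4 called rows in all, Syne2 with its 4 being one of them. Among 1918 genes with both Ensembl and assembled rows and a ratio from each, the direction of the sum turned in 432 (22.5%) when the assembled rows were left out. It turned with a difference of at least 1.9 on the log2 scale, as for Syne2, in 46 (2.40%). The cut-offs of 4 called rows and of 1.9 lie at or just under Syne2's own values, so Syne2 meets them by construction. These counts are therefore no test of how unusual Syne2 is.

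Syne2 accordingly stood on both sides of the authors' enrichment tables. In the authors' deposited table its gene identifier was listed in 7 of the 80 terms for genes called higher and in 3 of the 68 terms for genes called lower. The terms nucleoplasm, cytoplasm and cytoskeleton counted it in both directions. Of 1320 gene identifiers in any term, 46 were listed in both directions. Lmnb1 was listed in 1 term, nucleoplasm, among the lower ones (220 genes), and Lmna, Lmnb2 and Sun1 were in none.

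Sun1, which spans the inner nuclear membrane and binds lamin A, had low values and 2 rows in opposite directions. The assembled model TCONS_00020831 had 5.30 in simvastatin cells and 1.84 in control cells, 2.87-fold higher (adjusted p = 0.623 in the authors' deposited table). Sun1-206, a coding transcript of 22 exons on chromosome 5, had 1.67 with simvastatin and 2.25 in control, 1.34-fold lower (adjusted p = 0.895 in the authors' deposited table). The sums were 6.97 and 4.09, a log2 ratio of 0.77, above that of 91.1% of all gene sums. Without the assembled row the log2 ratio was -0.43. Neither row passed, so no direction can be given for Sun1.

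Genes of the nuclear envelope were counted in 3 lists, of which the LINC list includes the members Sun1 and Syne2. Each gene was taken by its row of highest mean value and set beside the whole table, where 1.76% of genes rose and 1.39% fell. By the authors' own call 6.91% of genes were higher and 5.5% lower, and at an unadjusted p under 0.05 in the authors' deposited table the shares were 13.6% higher and 14.9% lower. Of 11 LINC complex genes, 4 had rows, and only 2 of them, Sun2 and Syne1, are not members. None passed in the authors' deposited table, with 1 at an unadjusted p under 0.05, Syne2. The median log2 ratio of the 4 genes, members included, was 1.70 by single rows and 0.27 by sums, so the 2 readings differ widely in these genes. Sun2, the paralog of Sun1, had 4.41 with simvastatin and 5.23 in control in its highest row, and its sums were 6.83 and 5.93. Syne1, for nesprin-1, had 5.78 and 1.25 in its highest row, all 4 of its rows were assembled models, and its sums were 7.68 and 6.96.

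Of 18 partners of the lamina in the inner membrane and chromatin, 14 had rows, 1 rose and none fell, and 4 had an unadjusted p under 0.05 in the authors' deposited table. The list's median log2 ratio was -0.07, against 0.02 over all genes, with 6 of its genes above 0 and 8 below. Narf, which binds the tail of the lamin A precursor, rose 1.62-fold to 19.44 in simvastatin cells, against 12.01 in control cells, (adjusted p = 0.038 in the authors' deposited table). The authors also called Vrk1, a kinase that phosphorylates the chromatin linker Banf1, with 5.91 and 10.31 (adjusted p = 0.126 in the authors' deposited table). Banf1 itself was not called in its highest row, with 45.35 and 62.59, but the authors called another of its 3 rows. Among the lamin-binding membrane proteins, Emd (emerin) had 9.94 with simvastatin and 10.71 in control. Tmpo (LAP2) had 32.78 and 36.95 in an assembled row, and neither gene passed (adjusted p = 0.371 and 0.155 in the authors' deposited table).

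Of 7 genes that make or process the prenyl anchor, 6 had rows, and none passed in either direction, with 2 at an unadjusted p under 0.05 in the authors' deposited table. Fdps, which makes farnesyl diphosphate, had 159.24 with simvastatin and 81.53 in control (adjusted p = 0.057), and the authors called it. Fnta, the shared alpha subunit of the farnesyl and geranylgeranyl transferases, had 23.38 and 24.52 (adjusted p = 0.699 in the authors' deposited table). Zmpste24, the protease that removes the farnesylated tail of the lamin A precursor, had 19.86 with simvastatin and 18.22 in control (adjusted p = 0.587 in the authors' deposited table). The list's median log2 ratio was 0.33. These are RNA values, and neither lamin protein nor its prenyl state was measured.

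**Figure D4:**
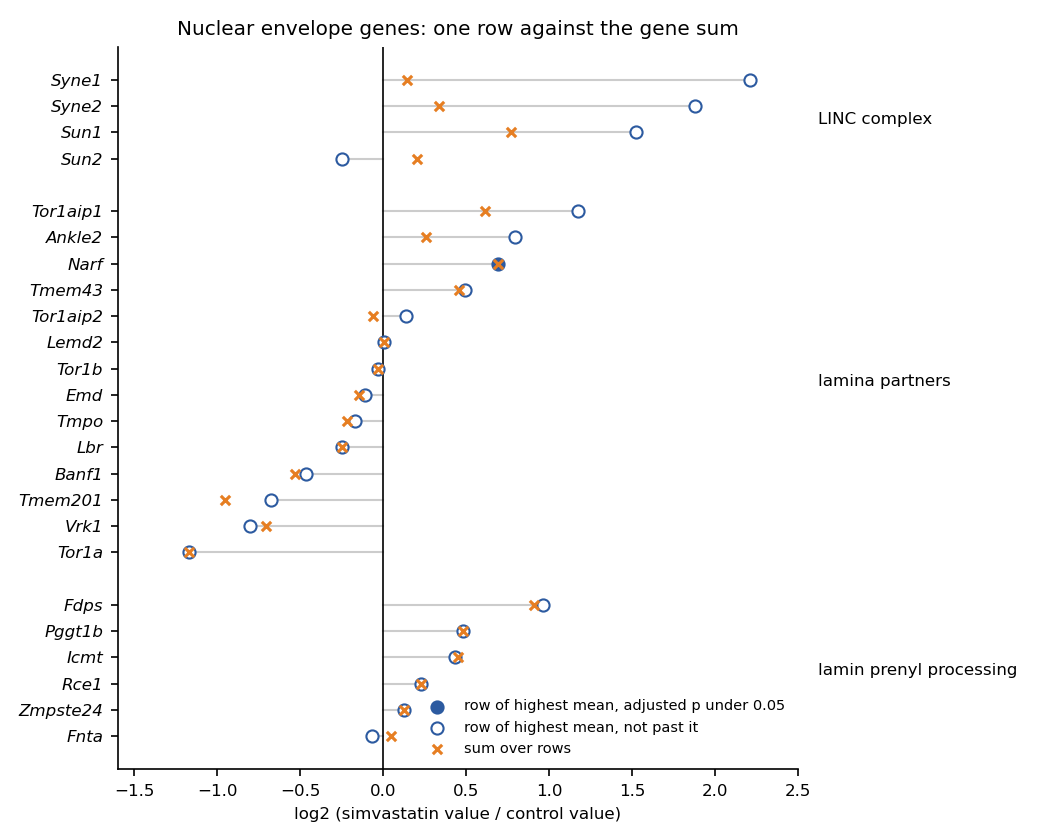
Log2 ratio of the simvastatin over the control value for the genes of the 3 lists, with a circle for the row of highest mean value, filled where the adjusted p was under 0.05, and a cross for the sum over rows. Narf is the 1 filled circle at 0.69, and circle and cross lie farthest apart for Syne1, at 2.21 and 0.14.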

How the data were processed

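RNA was sequenced from 6 samples of B16.F10 cells, 3 with simvastatin and 3 controls, from stranded total RNA libraries per the labels' protocols. Per the submitters' processing notes, HISAT2 2.0.5 and StringTie were used, with GRCm38 (mm10). The sources used here do not name the counting, the filter or the test. The deposited signal values are the authors' expression values, 1 per transcript and group. The deposited fold ratio, p-value and adjusted p-value are the authors', with the p-values printed to 3 decimals, and the fold ratio, held as a score, is negative where simvastatin was lower. The deposited log2 fold changes and z-score of the A375 comparison are also the authors'. The enrichment terms are from DAVID, per the file headers.

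Here (Python 3.11.15, pandas 2.3.3, numpy 2.4.6) group values were summed per gene with no pseudocount, and structures and sequences came from GENCODE mouse release 21. No test was refitted. All 5 members were named, and of each list up to 6 genes past the threshold or else the 2 of highest value. Syne1, Vrk1, Banf1, Emd, Tmpo and Zmpste24 were added after their values were seen. The members and lists were chosen with earlier results of these data known. Sums and the Benjamini-Hochberg adjustment were tested on simulated data.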

Additional observations from a re-analysis of the deposited data

How the results depend on the processing

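Of 55 alternative values, 29 changed little, 21 moved and 5 turned direction. This tally is not a rate of stability, because settings that keep the same rows of a gene return the same value. Lmna keeps all its rows with only Ensembl or only protein-coding rows. For Sun1 these settings keep the same 1 row, so its turns are the same result. A log2 ratio was counted as moved past a shift of 0.1, because no replicate spread was at hand. Lmnb1 has 1 row, so the alternatives that choose among rows could not change its log2 ratio of -1.24. The other alternatives shift that ratio by too little to turn it. Adding 1 to each sum gave -1.20, and subtracting the median log2 ratio of all gene sums gave -1.26. Scaling the groups to equal sums, which adds 0.20 to every log2 ratio, gave -1.04. That scaling gave 0.32 for Lmna, -0.33 for Lmnb2, 0.97 for Sun1 and 0.53 for Syne2. With only the row of highest mean value, the log2 ratio was -0.21 for Lmna, which turned, -0.41 for Lmnb2, 1.53 for Sun1 and 1.88 for Syne2. With only Ensembl rows it turned to -0.43 for Sun1 and -1.63 for Syne2, and was -0.41 for Lmnb2. With only protein-coding rows it turned to -0.43 for Sun1 and to -9.76 for Syne2, a value that rests on printed values of 0.02 and 0.00, and was -0.41 for Lmnb2. With both values at least 1 it was -0.41 for Lmnb2 and 1.18 for Syne2, and adding 1 to each sum gave 0.65 for Sun1. These turns follow from which rows enter the sum. The count of member rows called higher, 0 by the adjusted p, was 1 with the authors' call, an unadjusted p under 0.05 or the adjustment recomputed here, in each case TCONS_00005978, and that of rows called lower was 6 at the unadjusted p. In the lists, the authors' own call added 1 higher LINC gene, 1 higher prenyl gene and 1 lower lamina partner, and counting any row added 1 lower LINC gene, Syne2. No replicate could be left out, since 1 value per group was used. No paired analysis was possible because the columns used carry group values without replicate numbers. Depth per value is unknown.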
